A study of Danio rerio with 9 samples.

Results

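Glutathione and the antioxidant enzymes remove the superoxide and peroxides that leak from respiration. Glutamate-cysteine ligase, with its catalytic subunit Gclc and its modifier subunit Gclm, makes the first intermediate of glutathione, and glutathione reductase returns oxidised glutathione to its reduced form. Superoxide dismutases turn superoxide into hydrogen peroxide, which catalase, glutathione peroxidases and peroxiredoxins then break down, the peroxiredoxins with electrons from thioredoxin. Several of these genes are known targets of the stress factor Nrf2, which acts in zebrafish embryos as in mammals. The list held 10 gene names, gclc, gclm, gsr, sod1, sod2, cat, prdx1, prdx2, gpx4b and txn, and every probe set annotated to exactly 1 of them was taken. The name txn is an older symbol of 2 current genes, txna and txnb, and both were kept. All 10 names were found, as 11 current genes with 13 probe sets, out of 8793 genes and 15617 probe sets on the array. The gene prdx1 had 3 probe sets, which share a target and are not replicates. Each of them is included in the 13, so counts and medians of members are over probe sets, not genes.

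The embryos were whole wild-type zebrafish of the Tuebingen strain in gastrulation, 8 h post fertilisation. They were kept in deionized water or exposed to pentachlorophenol, a chlorinated phenol known to uncouple oxidative phosphorylation, at 20 or 50 µg/L, with 3 Affymetrix arrays for water, 3 for 20 µg/L and 3 for 50 µg/L. The labels call the arrays of a group biological replicates and do not give the number of embryos in a sample or their clutches, so p-values here rest on the spread of these arrays alone, which may be technical. Values are signal intensities on a linear scale, and the number of arrays limits their precision. A signal depends on the probe set as well as on the transcript, so the level of 1 probe set is not compared with that of another. Groups are compared for 1 probe set, for a ratio within an array, or for a sum over markers. In such a sum bright probe sets weigh most. Changes were tested on log2(signal + 1) with limma across 9301 probe sets and adjusted after Benjamini-Hochberg, with a threshold of 0.05. All 13 antioxidant probe sets passed the filter on dim probe sets, and none was under the tag control level, a measure of background, on any array.

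Water replicate 3 had the lowest median Spearman correlation with the other arrays (0.846) and 50 µg/L replicate 1 the next (0.876), against 0.905 to 0.921 for the rest. The stage label was checked with marker genes. Of these, 11 of 14 gastrula markers were above the tag control level on every array and 0 of 6 markers of later stages were. Only 2 of those 6 (gfap and tnnt2a) were under it on every array, so signal of later-stage markers was not shown to be absent. Such a check does not date embryos within a stage, and a difference in stage between the groups was not tested. Markers moved with the high dose, where 3.52% of all probe sets were called higher and 1.03% lower. Of 10 maternal oocyte markers 8 rose and none fell at 50 µg/L, and none of the 10 was under the tag control level on every array. Their summed signal was 17193 to 35797 at 50 µg/L and 4448 to 7416 in water. Of the 14 gastrula markers 4 rose (mixl1, vent, bmp4 and gsc) and otx2b fell, with a summed signal of 63572 to 78823 at 50 µg/L and 48476 to 54742 in water. Of 2 yolk syncytial markers tested hnf4a rose, while apoc1 was lower without reaching the threshold (log2 change -0.69, limma adjusted p = 0.109). Signals summed over the 4 such markers on the array overlapped (7933 to 10187 at 50 µg/L, 8894 to 14042 in water). The part of these shifts in the changes of the antioxidant genes was not tested. In whole embryos a change in the number of cells of a type and a change in RNA per cell cannot be told apart.

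At 50 µg/L the antioxidant probe sets did not move as a block. Of the 13, only gclc passed the test as higher than in water, none passed as lower and 12 did not pass. Among all probe sets tested 4.55% were called in either direction, 3.52% as higher and 1.03% as lower. The members' median log2 change was 0.09, beside 0.11 over all probe sets tested, with values from -0.82 for gpx4b to 1.08 for gclc. Of the 13 probe sets, 8 were above 0 and 5 below, with each probe set of prdx1 counted, where 56.4% of all were above. An unadjusted p under 0.05 was reached by 5 of 13 (gclc, gclm, gpx4b, txna and prdx2), against 24.6% of all probe sets. The arrays of 50 µg/L and water did not overlap for 5 of 13, as against 28.4% of all, with gclc higher and gclm, gpx4b, txna and sod2 lower at 50 µg/L. The split of all calls depends on the scaling, since 77.3% of them were higher at 50 µg/L with the deposited scaling, 59.3% after quantile normalization and 36.7% with each array centred on its median. Centring moved the median change of all probe sets by -0.29 and quantile normalization by -0.16. The signs of gclc, gclm, gpx4b, txna, sod1, sod2 and prdx2 were the same under all 3 scalings.

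**Figure D1:**
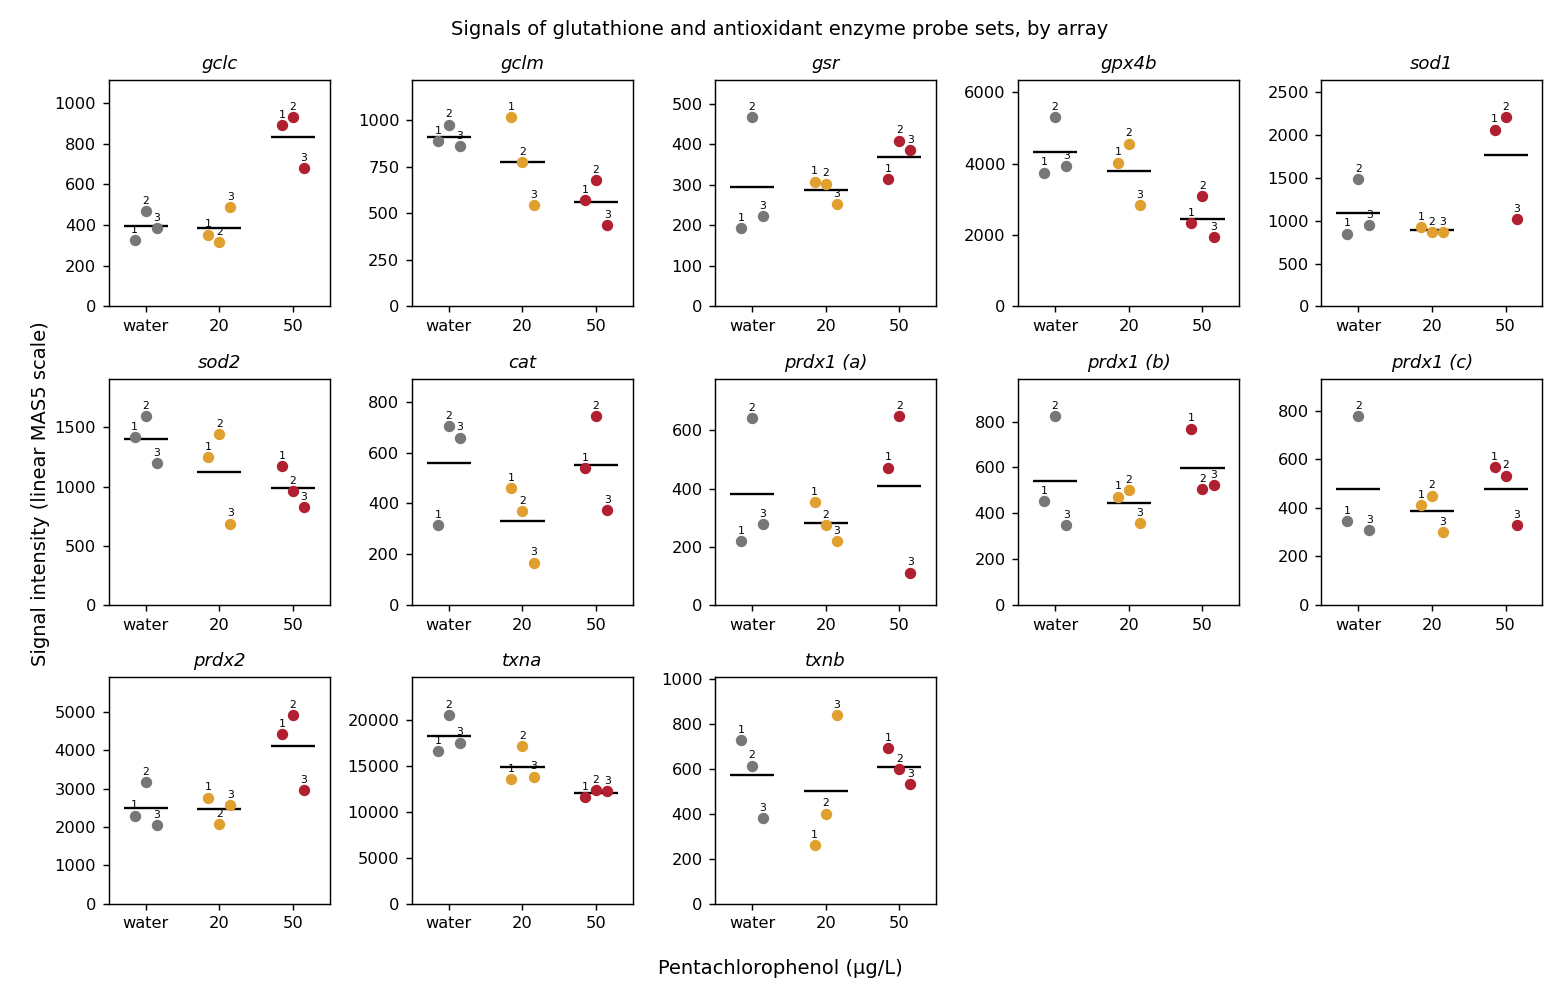
Signal intensity (linear scale from 0) of the 13 antioxidant probe sets on each array, with water, 20 and 50 µg/L from left to right, points numbered by replicate, and black lines at group means. The 3 points of gclc at 50 µg/L (679 to 929.9) lie above all 3 water points (324 to 469), while those of gclm, gpx4b, txna and sod2 lie below theirs; prdx1 (a), (b) and (c) are its 3 probe sets.

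The catalytic subunit gene of glutathione synthesis was higher at the high dose. The signal of gclc was 324, 469 and 387 in water, 353, 314.5 and 487 at 20 µg/L, and 893, 929.9 and 679 at 50 µg/L. All 3 arrays of 50 µg/L were above every array of the other groups, and those of 20 µg/L overlapped with water. The mean was 834 ± 135 at 50 µg/L and 393 ± 72.4 in water (SD, n = 3 each). This 2.12-fold difference, 1.08 on the log2 scale with an SE of 0.28, passed the test (limma adjusted p = 0.0469). Against 20 µg/L the log2 change was 1.13 (SE 0.28) and did not pass (limma adjusted p = 0.0698). The call against water lay close to the threshold. It was lost without 50 µg/L replicate 1, 2 or 3 (limma adjusted p = 0.19, 0.119 and 0.0717), without water replicate 1 or 3 (0.109 and 0.0636) and without 20 µg/L replicate 1 or 2 (0.0755 and 0.0673). It held without water replicate 2 (0.0348) and 20 µg/L replicate 3 (0.0407), and the log2 change stayed between 0.95 and 1.23 over these 9 fits. Of 12 other settings that left out no single array, 6 kept the call and 6 lost it, among them the quantile (0.91, adjusted p = 0.0661) and median (0.80, adjusted p = 0.0823) scalings. Array weights, which called 18.6% of all probe sets, gave the lowest limma adjusted p of these 12 (0.00316, log2 change 1.27).

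The modifier subunit gene had the opposite sign. The signal of gclm was 888, 977.5 and 859.6 in water, 1015, 777 and 543 at 20 µg/L, and 572, 679.8 and 438 at 50 µg/L. Every 50 µg/L array was below every water array, and 20 µg/L spanned both ranges. The log2 change at 50 µg/L was -0.71 (SE 0.29, 95% interval -1.34 to -0.08), which did not pass after adjustment over all probe sets (limma adjusted p = 0.158).

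The glutathione reductase gene gsr had signals of 194, 466 and 223 in water, 308, 303 and 252 at 20 µg/L, and 314.5, 409 and 385 at 50 µg/L. Water replicate 2 was above all other arrays, so 50 µg/L and water overlapped. The log2 change was 0.43 with a 95% interval from -0.29 to 1.16 (limma adjusted p = 0.447). For gpx4b, which encodes a selenium-dependent peroxidase of lipid hydroperoxides that uses glutathione, the signal was 3751, 5295 and 3921 in water, 4029, 4559.5 and 2829 at 20 µg/L, and 2328, 3099 and 1942 at 50 µg/L. All arrays of 50 µg/L were below those of water. The mean was 2456 ± 589 at 50 µg/L and 4322 ± 847 in water (SD, n = 3 each). The log2 change of -0.82 (SE 0.27) was the lowest of the 13 and missed the threshold (limma adjusted p = 0.0891). With array weights, which called 18.6% of all probe sets, it was -0.72 and passed (limma adjusted p = 0.0376). It did not pass after quantile normalization (-0.71, limma adjusted p = 0.12) or without the intensity trend (-0.82, adjusted p = 0.131). With each array centred on its median, which moved the median change of all by -0.29, it was -1.11 and narrowly missed (limma adjusted p = 0.0502).

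The superoxide dismutase genes differed in sign. The signal of sod1, which encodes the copper and zinc enzyme of the cytosol, was 850.4, 1485 and 952 in water, 922, 869 and 869 at 20 µg/L, and 2063.5, 2206 and 1022 at 50 µg/L. Replicates 1 and 2 of 50 µg/L were above every other array, and replicate 3 lay inside the water range. The log2 change was 0.65 against water (SE 0.33, limma adjusted p = 0.242) and 0.91 against 20 µg/L (SE 0.33, adjusted p = 0.18), where the groups did not overlap. The signal of sod2, which encodes the manganese enzyme of mitochondria, was 1414, 1593 and 1196 in water, 1249.5, 1442 and 687 at 20 µg/L, and 1170.1, 960.2 and 825.5 at 50 µg/L. The 50 µg/L arrays were all below water, the nearest by a small step. The log2 change was -0.51 (SE 0.31, limma adjusted p = 0.322). Neither sod1 nor sod2 passed. With array weights, a setting that called 18.6% of all probe sets, sod1 passed against water (0.92, limma adjusted p = 0.0347).

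The catalase gene cat, whose product splits hydrogen peroxide in peroxisomes, had signals of 315.5, 703 and 659 in water, 459.5, 371 and 167 at 20 µg/L, and 539, 743 and 374 at 50 µg/L. Its arrays overlapped between all 3 groups, and the replicates of each group spread widely. The log2 change at 50 µg/L was 0.01 with a 95% interval from -0.92 to 0.95 (limma adjusted p = 0.99), so a change of up to nearly 1 on the log2 scale in either direction lies inside its error.

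The peroxiredoxin genes prdx1 and prdx2 encode thiol peroxidases that act mainly in the cytosol. The signal of prdx2 was 2299.5, 3177 and 2050.4 in water, 2767, 2087 and 2568.5 at 20 µg/L, and 4416, 4921 and 2970.1 at 50 µg/L. Replicate 3 of 50 µg/L lay inside the water range, and all 3 were above those of 20 µg/L. The log2 change was 0.70 against water (SE 0.27, limma adjusted p = 0.134) and 0.71 against 20 µg/L (SE 0.27, adjusted p = 0.195), and neither passed. For prdx1 the 3 probe sets had log2 changes of -0.07, 0.21 and 0.09 at 50 µg/L (SE 0.58, 0.34 and 0.37), with limma adjusted p from 0.728 to 0.951. The second of them, (b) in the plots and the one used in the ratio to prdx2 for its highest mean signal, ranged from 507 to 769 at 50 µg/L and from 349.5 to 823 in water. Water replicate 2 was the highest water array for all 3, and with quantile or median scaling the sign of 1 or 2 of the 3 turned.

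Thioredoxin, a small dithiol protein that hands electrons to peroxiredoxins, is encoded by txna and txnb. The signal of txna was 16621, 20559.5 and 17548 in water, 13586.5, 17201 and 13861.5 at 20 µg/L, and 11648.5, 12372 and 12245 at 50 µg/L. The 50 µg/L arrays lay close together and below every array of the other groups. The mean was 12088 ± 386 at 50 µg/L and 18243 ± 2059 in water (SD, n = 3 each). The log2 change of -0.59 (SE 0.18) missed the threshold (limma adjusted p = 0.0743). It passed with array weights (-0.52, limma adjusted p = 0.0355), which called 18.6% of all probe sets. It also passed with each array centred on its median (-0.87, adjusted p = 0.0423), which moved the median change of all by -0.29. After quantile normalization it was -0.22 and did not pass (limma adjusted p = 0.419). The change of -0.59 also did not pass with no filter on dim probe sets (limma adjusted p = 0.199) or without the intensity trend (0.169). The signal of txnb was 729, 615 and 380.2 in water, 260.0, 402 and 839.9 at 20 µg/L, and 692, 598 and 534 at 50 µg/L. Its groups overlapped, with a log2 change of 0.12 at 50 µg/L (SE 0.40, limma adjusted p = 0.868) whose sign turned under quantile and median scaling.

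**Figure D2:**
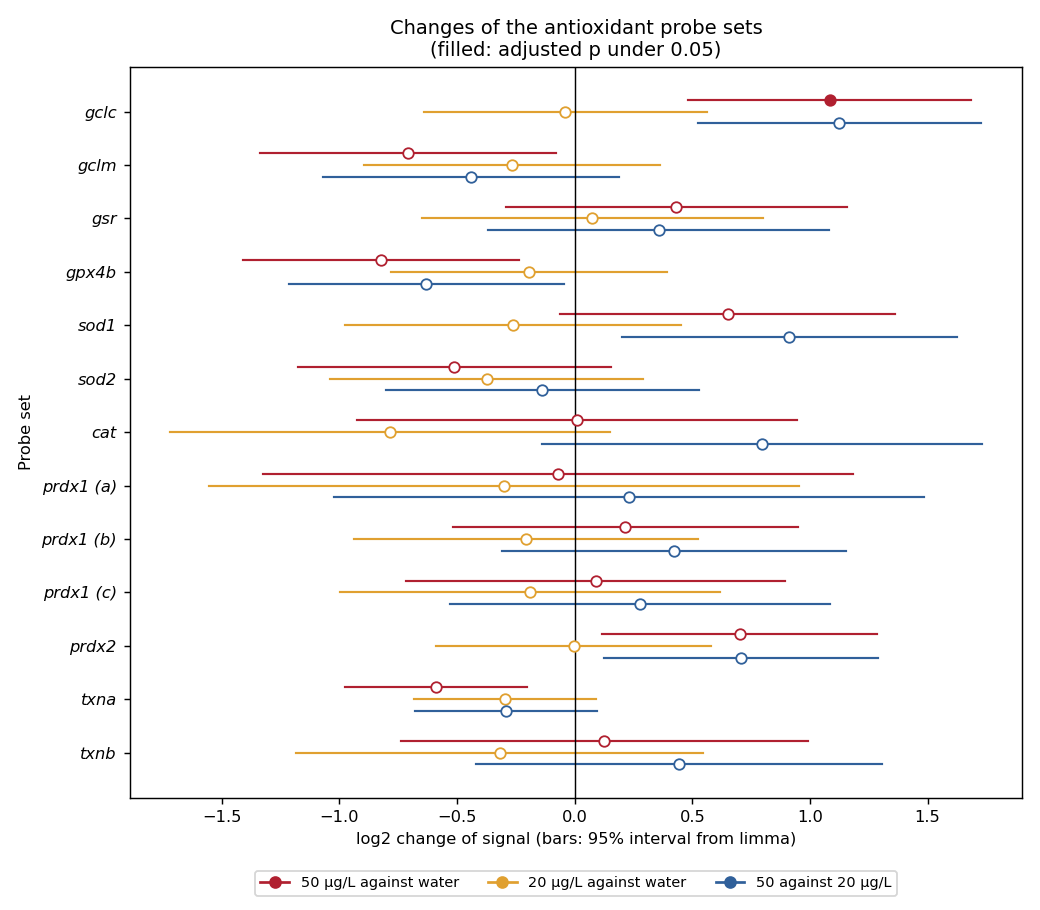
Log2 change of signal of each antioxidant probe set (rows) for 50 µg/L against water, 20 µg/L against water and 50 against 20 µg/L, with 95% intervals from limma and filled points where the adjusted p was under 0.05. The filled point is gclc at 50 µg/L against water (1.08). In that comparison the intervals of gclm, gpx4b and txna lie below 0 before adjustment, and those of gclc and prdx2 above.

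At 20 µg/L none of the 13 passed against water (limma, lowest adjusted p = 0.663), as none of all probe sets tested did (0% called), and 0 of 13 reached an unadjusted p under 0.05, against 7.82% of all. The log2 changes ran from -0.78 for cat to 0.07 for gsr with a median of -0.26, beside -0.04 over all probe sets. Of the 13, 1 was above 0 and 12 below, where 53.2% of all probe sets were below. Every prdx1 probe set was among the 12. No member's arrays were free of overlap between 20 µg/L and water, as against 12.7% of all. Between the doses, 50 against 20 µg/L, none of the 13 passed (limma), 4 reached an unadjusted p under 0.05, against 18.5% of all, and 1.42% of all probe sets were called in either direction, 1.39% as higher and 0.0323% as lower. The lowest limma adjusted p was that of gclc (0.0698). Of the 13, 9 were above 0 and 4 below (58.5% of all above), with a median of 0.36, beside 0.12 over all. The arrays did not overlap for 6 of 13, as against 28.2% of all. Of the 6, gclc, gsr, sod1, prdx1 (b) and prdx2 were higher and txna lower at 50 µg/L. This comparison shares its arrays with the 2 others.

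Pairs of related genes were also compared within each array, where a scale factor common to the array cancels. These 4 pairs were chosen after their values were seen, so the ratios are given as a description. Exact tests were run on 12 comparisons of them. With 3 arrays in a group the smallest possible p was 0.1, so these tests could not pass and decide nothing. For gclc over gclm at 50 µg/L against water the exact test gave p = 0.1 (adjusted p = 0.4). Relative to its mean in water, the log2 ratio of gclc over gclm was 1.67 to 1.86 at 50 µg/L and -0.23 to 0.16 in water, a difference of 1.79 or 3.47-fold. The 50 µg/L arrays were far from the water arrays, and 20 µg/L spread from -0.30 to 1.06. That 50 µg/L and water separate follows from gclc lying above and gclm below every water array, so it is not a separate result. The ratio of sod1 over sod2 was 0.70 to 1.59 at 50 µg/L and -0.35 to 0.29 in water, a difference of 1.16. It did not overlap between 50 µg/L and water and did between the doses. The ratios of prdx2 over prdx1 (b) (a difference of 0.49) and of txnb over txna (0.71) overlapped between 50 µg/L and water.

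**Figure D3:**
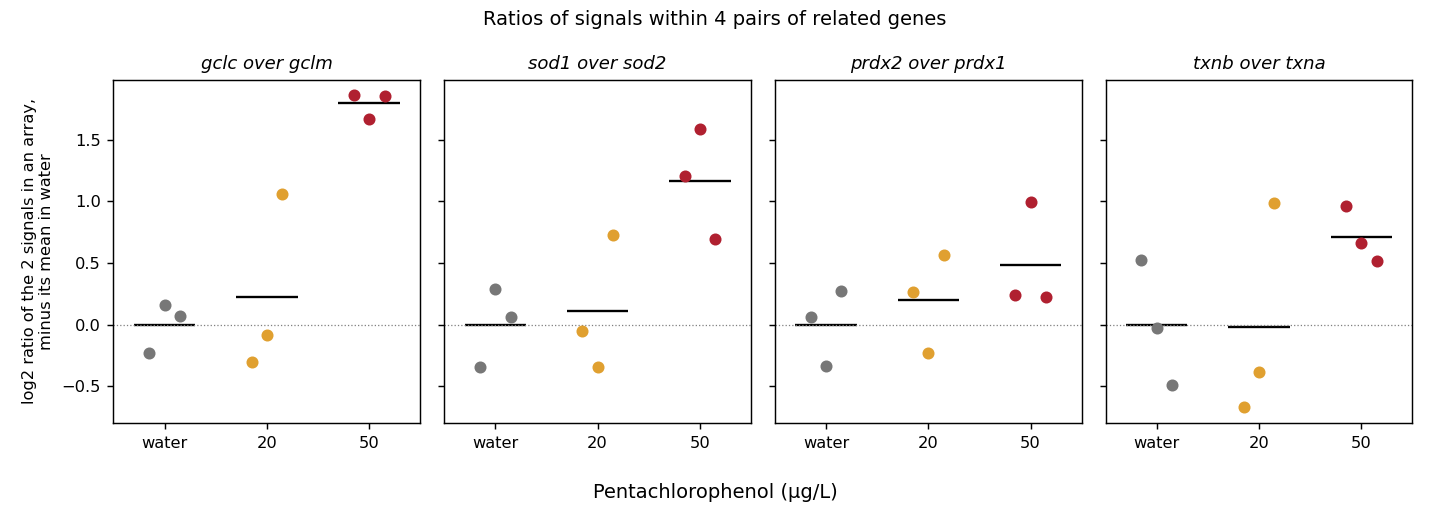
Log2 ratio of the signals of 2 related genes within an array, minus the mean of that ratio in water, for 4 pairs and with water, 20 and 50 µg/L from left to right. Points are arrays and black lines group means; the points of gclc over gclm at 50 µg/L (1.67 to 1.86) stand clear of all others.

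The rest of the pathway was read from a wider list of 108 gene names for glutathione, thioredoxin, NADPH supply and Nrf2. Of these, 50 genes were on the array under a single annotation, 6 were too dim to test and 44 were tested. At 50 µg/L none of the 44 rose or fell (limma), beside 4.55% called of all probe sets, and 12 reached an unadjusted p under 0.05, beside 24.6%. The median log2 change was 0.00, beside 0.11 over all probe sets. Of the 44 genes 22 were above 0 and 22 below, where 56.4% of all probe sets were above. At 20 µg/L against water none passed (0% of all) and 1 reached an unadjusted p under 0.05 (7.82% of all). At that dose 14 genes were above 0 and 30 below (53.2% of all below), with a median of -0.11, beside -0.04 over all. Between the doses none passed (1.42% of all) and 10 reached an unadjusted p under 0.05 (18.5% of all). There 23 genes were above 0 and 21 below (58.5% of all above).

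In glutathione turnover none of 4 genes tested passed, with log2 changes at 50 µg/L of 0.50 for chac1, whose product degrades glutathione, and -0.25 for slc3a2a, a subunit of amino acid transporters. Among 4 other glutathione peroxidase genes, gpx8, whose product lies in the endoplasmic reticulum in mammals, had 0.97 and gpx1a had -0.93 (limma adjusted p = 0.171 and 0.0869). The signal of gpx8 was under the tag control level in water replicate 3 (91.7, level 113.8) and 20 µg/L replicate 1 (51.4, level 56.9). Signals of gpx1a averaged 260 ± 26.9 at 50 µg/L and 502 ± 99.6 in water (SD, n = 3 each). Among 3 other peroxiredoxin genes, prdx5 came closest to the threshold of the whole wider list, with 559.9, 691 and 622 at 50 µg/L and 1097, 1063 and 1720 in water. Its arrays did not overlap, and its log2 change was -1.02 (SE 0.27, limma adjusted p = 0.0509). The change of prdx4, whose product acts in the endoplasmic reticulum in mammals, was 0.60 (adjusted p = 0.259).

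Of 10 thioredoxin and glutaredoxin genes none passed, with 0.74 for msraa, a methionine sulfoxide reductase gene, and -0.68 for the thioredoxin-like gene txnl1 (limma adjusted p = 0.182 and 0.138). Of 6 glutathione transferase genes, which conjugate foreign compounds to glutathione, gstm.1 had 1.24 and gstp1.2 had 1.06 (limma adjusted p = 0.0909 and 0.0719). The signals of gstp1.2 were 3076, 3395 and 1879.5 at 50 µg/L and 1027, 1636 and 1296 in water, with every 50 µg/L array above water. Of 7 genes that supply NADPH, the malic enzyme gene me3 had 1.13 and the pentose phosphate gene pgd had -0.75 (limma adjusted p = 0.0741 and 0.141). The signals of me3 were 471, 448 and 459 at 50 µg/L and 129.8, 260.3 and 271 in water, which did not overlap. For the Nrf2 pathway 25 names were listed and only 5 genes could be tested. Among them blvrb had 0.73 and the quinone reductase gene nqo1 had -0.28 (limma adjusted p = 0.308 and 0.609). The arrays of nqo1 overlapped between the groups, and those of blvrb and msraa overlapped between 50 µg/L and water. In a last group of 5, park7, a redox-sensitive protein gene, had 1.04 and ucp2, an uncoupling protein gene, had -0.72 (limma adjusted p = 0.0833 and 0.0937). In water replicate 3 the signal of park7 (109.8) was under the tag control level of that array (113.8). The arrays of gpx1a, gpx8, txnl1, gstm.1, pgd, park7 and ucp2 also did not overlap between 50 µg/L and water. Among all probe sets 28.4% did not overlap, and these genes were named for their large changes. None of the named genes of the wider list passed at 50 µg/L.

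**Figure D4:**
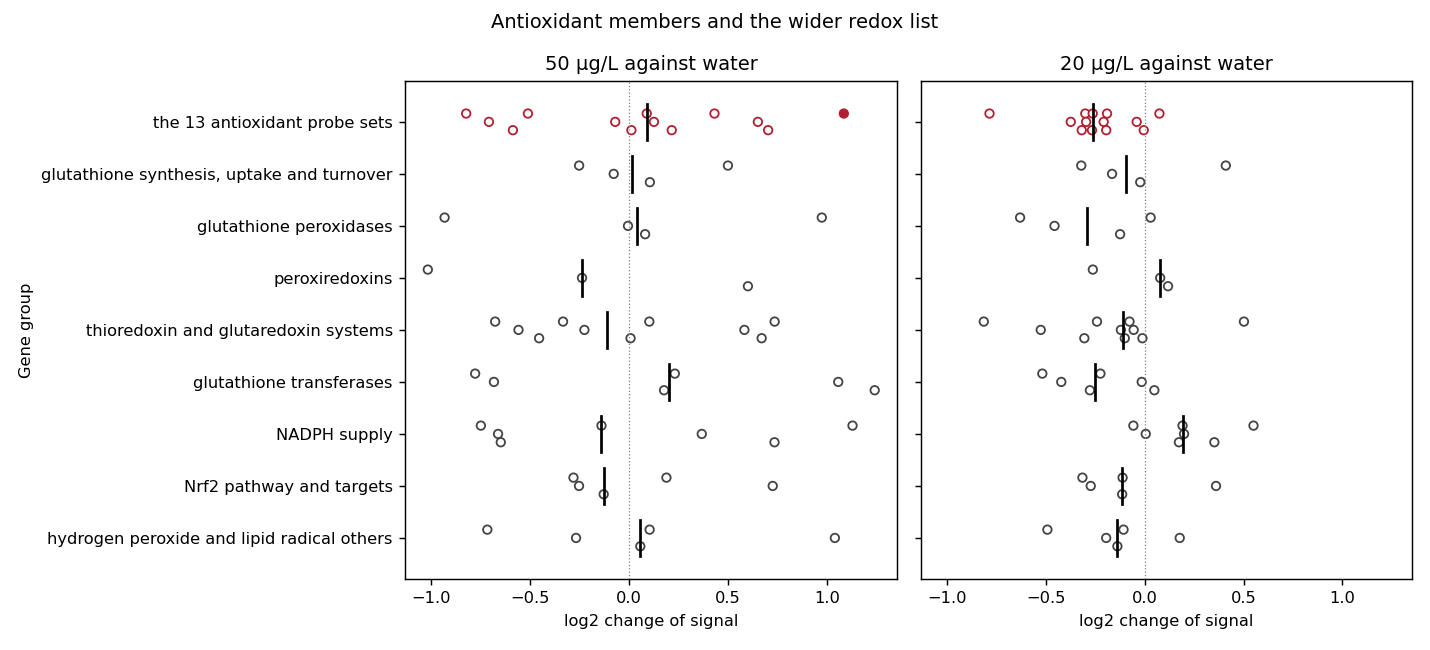
Log2 change at 50 µg/L against water (left) and 20 µg/L against water (right) for the 13 antioxidant probe sets and for 8 groups of the wider list, 1 point per probe set, black bars at group medians, filled where the adjusted p was under 0.05. At 50 µg/L the points lie on both sides of 0 in every group, from -1.02 for prdx5 to 1.24 for gstm.1 in the wider list. The filled point is gclc.

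The genes whose pattern was most like that of gclc were sought over the 9 arrays among 7295 probe sets with 1 gene, as the smallest mean absolute difference of log2 values centred on their own mean. They were gins2, a DNA replication gene (0.11), alg9, a gene of protein glycosylation (0.12), and ap3s1, a gene of vesicle traffic (0.13), against a median difference of 0.58 over all candidates. Since the choice used all 9 arrays, their changes at 50 µg/L are fixed by it and were not read as a result.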

How the data were processed

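The authors deposited an intensity for each probe set and array, not log-transformed, made with GCOS and MAS5 per the submitters' processing notes (no version is given in the sources used here). The trimmed mean, with 2% left out at each end, was 500.1 to 500.2 on every deposited array, and no column of another sample was present. Here, values were taken as log2(value + 1). The 115 control probe sets and the 40% of the others with the lowest mean were left out, which kept 9301. The 3 group means were estimated from all 9 arrays together by limma 3.58.1 (R 4.3.3, eBayes with an intensity trend), two-sided. The tag control level is, for each array, the signal under which 95% of its tag control probe sets lay. Arrays numbered 3 carried more decimals than the others, which was tried as a batch. Replicate numbers were not a block, since deviations of same-numbered arrays were only weakly correlated (from -0.16 to 0.23, 1 of 9 over 0.1). Between 50 µg/L and water these correlations were 0.097, 0.23 and 0.099 for replicates 1, 2 and 3. The block was run as an alternative. Gene symbols came from the platform annotation, updated through gene identifiers to RefSeq, with 10802 probe sets annotated to 1 gene, 135 to several and 4680 to none. For genes of the wider list with several probe sets, the one with the highest mean stood for the gene. Wider-list genes are named where called or where among the 2 largest changes of their group. The members and lists were chosen with earlier results of these data known. Sequences and genome positions were not used here.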

Additional observations from a re-analysis of the deposited data

How the results depend on the processing

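All values here are for 50 µg/L against water unless named. In place of 1 antioxidant probe set called, 0 were called with no filter on dim probe sets, after quantile normalization, without the intensity trend and with only the 2 groups compared, and 5 with array weights (gclc, sod1, prdx2, gpx4b and txna), a setting that called 18.6% of all probe sets. With each array centred on its median the 1 call was txna and no longer gclc. With the replicate number as a block the count was 0 and gclc had limma adjusted p = 0.0708. Only 4 of 9 arrays deviated most like an array of their own number, so the numbers are not known to pair the samples. Leaving out each array gave 0 to 1 calls. Between the doses, where 0 were called, 3 were called among the 6 arrays deposited with 1 decimal, 4 with array weights, 1 with only the 2 groups compared, and 0 to 1 with an array left out. Of all probe sets the first 3 of these settings called 12.6%, 21% and 4.38%, against 1.42% in the main fit. With an array left out, 0.0108% to 4.74% of all were called between the doses. At 20 µg/L against water the count of antioxidant probe sets called was 0 in all settings run. Over all probe sets 423 were called, against 1729 with array weights, 277 with no filter, 247 with the block, 197 with only the 2 groups compared and 0 to 734 with an array left out, the 0 being without 50 µg/L replicate 1. The cause of these shifts was not tested.

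Signs turned only for cat, txnb and prdx1 in the settings run. After quantile normalization cat had -0.23, 1 probe set of prdx1 -0.15 and txnb -0.085. With each array centred on its median cat had -0.27, txnb -0.16 and 2 probe sets of prdx1 -0.070 and -0.20. The other prdx1 probe set had 0.55 among the arrays with 1 decimal and 0.44 with array weights, where txnb had -0.057 and -0.11. With 1 array left out cat ran from -0.36 to 0.26, txnb from -0.15 to 0.32 and the prdx1 probe sets from -0.57 to 0.70, -0.053 to 0.56 and -0.16 to 0.50. The log2 ratio of gclc over gclm, with alternatives added after seeing the data, was 1.71 with an offset of 32 and 1.68 to 1.87 with an array left out.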
